A study of Rattus norvegicus with 23 samples.

Results

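The insulin-like growth factor system was followed in the hearts and kidneys of Sprague-Dawley rats, 13 weeks old, as RNA levels of 10 genes chosen by name for belonging to this system, out of 32552 gene identifiers counted. They comprise the ligands Igf1 and Igf2, the receptors Igf1r and Igf2r, and the binding protein genes Igfbp2 to Igfbp7. Rats of the group NX had a partial (5/6) nephrectomy, the removal of most kidney tissue that is widely used as a model of chronic renal failure. Rats of the group AVF+NX had the same nephrectomy and a fistula that joined the end of the jugular vein to the side of the carotid artery, the kind of connection made as an access for dialysis. Controls had sham surgery (Sham), and all tissue was taken 4 weeks after surgery. Every organ and group had 4 libraries, apart from Sham hearts, which had 3, and 23 libraries were made in all. No group had the fistula without the nephrectomy, so the fistula was seen only on that background. The labels give neither the heart chamber nor the zone of the kidney that was sampled, and hearts and kidneys cannot be matched to a rat.

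Insulin-like growth factor 1, made in liver and locally in most tissues under the control of growth hormone, signals through the tyrosine kinase receptor encoded by Igf1r to the PI3K-AKT and MAP kinase pathways and promotes growth and survival of cells. Insulin-like growth factor 2, a fetal growth factor, binds the same receptor and is also taken up and degraded through the receptor encoded by Igf2r, which carries mannose-6-phosphate-tagged enzymes to lysosomes. Binding proteins hold both ligands in blood and tissue, prolong their life and limit or deliver them to the receptor, and proteases release the ligands again. In the heart the system is known for its part in growth of cardiomyocytes, and in the kidney for its effects on filtration and on compensatory growth after loss of kidney tissue.

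Total counts per library ran from 9069354 to 48079431. The AVF+NX hearts were sequenced more deeply (11889483 to 48079431) than the Sham hearts (9894716 to 11866042), with no overlap. An index of 63 small RNA genes, the mean of their centred log2 CPM (counts scaled to a common library total, with TMM factors), also separated these hearts: it was 0.79 to 0.84 in Sham, -0.89 to -0.28 in AVF+NX, and from -1.02 to 1.00 in NX. The 8 cardiomyocyte markers summed to 61175 to 75664 CPM in hearts and to 16.6 to 29.0 CPM in kidneys, as the organ labels say. In kidneys the 4 medulla markers varied from 80.5 to 463 CPM, and they were highest in NX library 1, AVF+NX library 4 and Sham library 1 (463, 418 and 351 CPM). All 10 genes could be tested in kidney and 9 in heart, where Igfbp2 had no count in any library.

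The 3 promoters shown are those of the genes whose differences between surgery groups were the largest among those that passed the test in heart (Igf1) and in kidney (Igfbp6 and Igfbp4). Each runs from 250 bases before to 50 after the RefSeq start of the gene in the GRCr8 build, 5′ to 3′ on the gene's strand: Igf1 at chr7:24172282-24172581, Igfbp6 at chr7:135154669-135154968 and Igfbp4 at chr10:84491221-84491520, all on the plus strand. Capitals mark matches, on either strand, to 6 motifs. The TATA box was searched as TATAAA, the site that places the start of transcription. The GC box, bound by SP1, was searched as GGGCGG, and the CCAAT box, bound by NFY, as CCAAT. The E box, bound by MYC and related factors, was searched as CACGTG. The STAT motif was searched as TTCNNNGAA, and the FOXO motif, last, as GTAAACA. No window shown holds more than 1 match, so matches do not overlap in them.
Igf1: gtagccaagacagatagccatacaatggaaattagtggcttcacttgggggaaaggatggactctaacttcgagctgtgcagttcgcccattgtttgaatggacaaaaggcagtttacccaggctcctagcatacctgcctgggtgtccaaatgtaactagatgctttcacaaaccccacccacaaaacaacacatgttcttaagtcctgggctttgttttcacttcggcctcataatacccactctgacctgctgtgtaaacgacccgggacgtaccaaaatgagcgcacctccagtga
Igfbp6: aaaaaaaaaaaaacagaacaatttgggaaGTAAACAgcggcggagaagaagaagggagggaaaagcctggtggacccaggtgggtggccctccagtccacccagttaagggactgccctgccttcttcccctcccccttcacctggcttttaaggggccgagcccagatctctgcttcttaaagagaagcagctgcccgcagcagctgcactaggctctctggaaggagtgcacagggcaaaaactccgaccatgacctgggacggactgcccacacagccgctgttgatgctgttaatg
Igfbp4: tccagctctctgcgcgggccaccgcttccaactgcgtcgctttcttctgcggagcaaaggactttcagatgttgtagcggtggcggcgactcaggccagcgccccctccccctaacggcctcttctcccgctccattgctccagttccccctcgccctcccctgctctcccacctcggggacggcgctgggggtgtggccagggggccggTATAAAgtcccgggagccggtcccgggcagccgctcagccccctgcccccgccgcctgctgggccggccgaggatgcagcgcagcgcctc

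The Igf1 window held none of the 6 motifs and was 48.3% G and C. The Igfbp6 window, 55.3% G and C, held the FOXO motif at 221 bases before the start; 3.78% of 33469 rat promoters of this length hold it. FOXO factors are the transcription factors that AKT keeps out of the nucleus when insulin-like growth factors signal. The Igfbp4 window, 71.0% G and C, held the TATA box at 40 bases before the start, as do 14.2% of promoters. Among the other members, Igfbp7 held 4 GC boxes, Igf2r 2 GC boxes and 2 E boxes, and Igfbp2 a GC box and an E box. Igf1r held a GC box and an E box in a window of 78.0% G and C. Both windows of Igf2 held a GC box, and Igfbp3 and Igfbp5 none of the 6 motifs. The GC box is in 33.1% of promoters and the E box in 6.42%. A match describes the letters only.

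Hearts and kidneys of Sham rats differed in 8 of the 9 members that could be compared (71.2% of 15222 genes did): 2 were higher in heart and 6 lower. In this comparison CPM are on a scale common to all 23 libraries. Igf2 was 33.8, 47.6 and 68.5 CPM in hearts and 3.75 to 5.52 CPM in kidneys, 11.5-fold higher in heart (log2 fold change 3.52, SE 0.25). Igfbp6, whose protein binds insulin-like growth factor 2 in preference, was 25.2, 24.7 and 20.9 CPM in hearts and 1.31 to 4.20 CPM in kidneys, 7.53-fold higher in heart (log2 2.91, SE 0.53). The ligand and its preferential binding protein were thus both higher in heart. The other 6 were lower in heart: Igfbp5 7.32-fold, Igfbp3 4.64-fold, Igfbp4 4.39-fold, Igfbp7 3.67-fold, Igf1r 3.36-fold and Igf1 1.91-fold. Their edgeR adjusted p reached at most the 0.000443 of Igf1. Igf2r stood at 302 to 351 CPM in hearts and 337 to 392 CPM in kidneys, and the difference did not pass the test (log2 -0.14, 95% interval -0.45 to 0.17, adjusted p = 0.431).

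Igfbp2 was found in kidney and not in heart. Its counts were 216 to 346 in the 4 Sham kidneys and 0 in all 11 hearts, which hold 226480356 counts in all. Set against a floor of 3 counts over the Sham hearts, it was at least 187-fold higher in Sham kidney. Its neighbour on chromosome 9 of the files, Igfbp5, is on the opposite strand and was counted in both organs. Here Igfbp2 lies from 80118029 to 80144789 on the plus strand and Igfbp5 from 80150211 to 80167033 on the minus strand; the genome build of the files is not given in the sources used here.

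**Figure D1:**
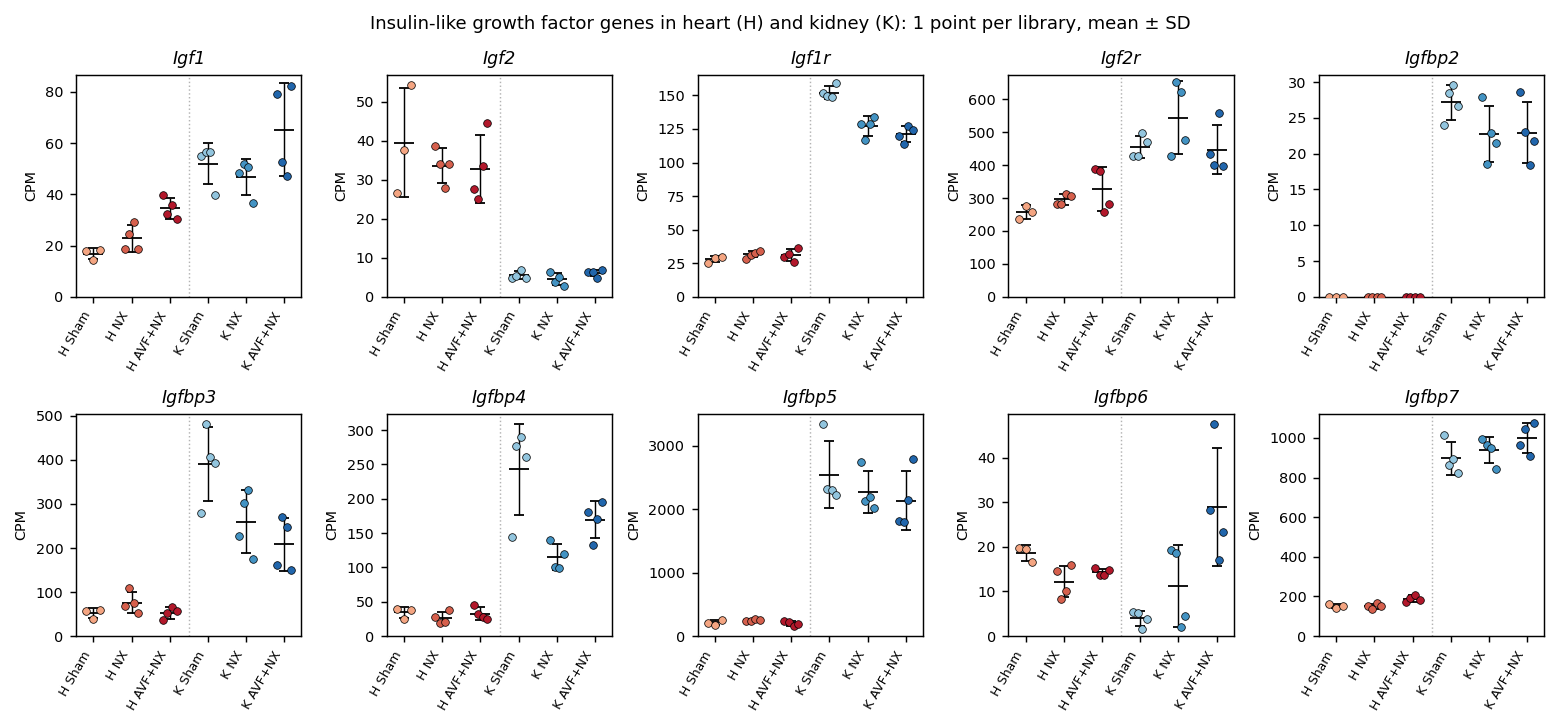
RNA levels of the 10 genes in CPM (y axis, linear, from 0) for heart (H) and kidney (K) in the groups Sham, NX and AVF+NX. Each point is 1 library, horizontal bars are group means and whiskers SD (n = 3 for heart Sham, otherwise 4). Heart Igf1 steps up from Sham (14.4 to 18.4) to AVF+NX (30.3 to 39.7), and kidney Igfbp6 from Sham (1.66 to 5.34) to AVF+NX (17.0 to 47.5); Igfbp2 is 0 in every heart.

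Between genes, levels were compared as CPM per kilobase of exon (means ± SD of libraries within the organ). Igfbp7, which encodes a secreted matrix protein that binds the ligands only weakly, was the highest member in all 6 groups. In Sham hearts it stood at 138 ± 9.15, followed by Igfbp5 (37.0 ± 6.71) and Igf2r (29.3 ± 2.26), whose ranges of mean ± SD overlapped. Igfbp3 (21.8 ± 4.49), Igfbp6 (17.4 ± 1.65) and Igfbp4 (15.8 ± 3.62) came next, each overlapping its neighbour. Igf1, Igf2 and Igf1r closed the order at 8.78 ± 1.14, 7.0 ± 2.48 and 6.88 ± 0.593, also overlapping. In Sham kidneys Igfbp7 (814 ± 74.6) and Igfbp5 (434 ± 91.1) led, and Igfbp3 (162 ± 34.7) and Igfbp4 (112 ± 30.5) overlapped. Below them stood Igf2r (51.9 ± 3.82), Igf1r (37.1 ± 1.15), Igf1 (27.0 ± 4.19), Igfbp2 (21.2 ± 1.88), Igfbp6 (3.73 ± 1.57) and Igf2 (0.971 ± 0.183), of which only Igf1 and Igfbp2 overlapped as neighbours. The Igf1r model in the files is 4101 bases long, close to its coding length, so its per-length level is less comparable.

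Igfbp7 made up 60.2% of the summed per-length level of the binding protein genes in Sham hearts, 58.4% in NX and 66.7% in AVF+NX hearts. In kidneys its share was 51.1 to 54.2% in the 4 Sham libraries, 57.5 to 60.8% in NX and 58.8 to 63.6% in AVF+NX, so neither operated group overlapped with Sham. Mean shares of Igfbp3 and Igfbp4 were lower than in Sham: 10.6% and 7.32% in Sham, 7.53% and 3.71% in NX, and 5.89% and 5.28% in AVF+NX kidneys. That of Igfbp5 was 27.9% in Sham, 27.1% in NX and 24.5% in AVF+NX kidneys. Of the 2 ligand genes, Igf1 held 96.5 to 96.9% of the per-length level in the kidney groups on average. In hearts its share was 56.3 ± 8.76% in Sham, 65.9 ± 7.45% in NX and 75.6 ± 6.40% in AVF+NX (SD, n = 3, 4 and 4). In AVF+NX hearts that share ran from 66.5 to 80.9% and in Sham hearts from 49.9 to 66.3%. These shares were not tested.

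**Figure D2:**
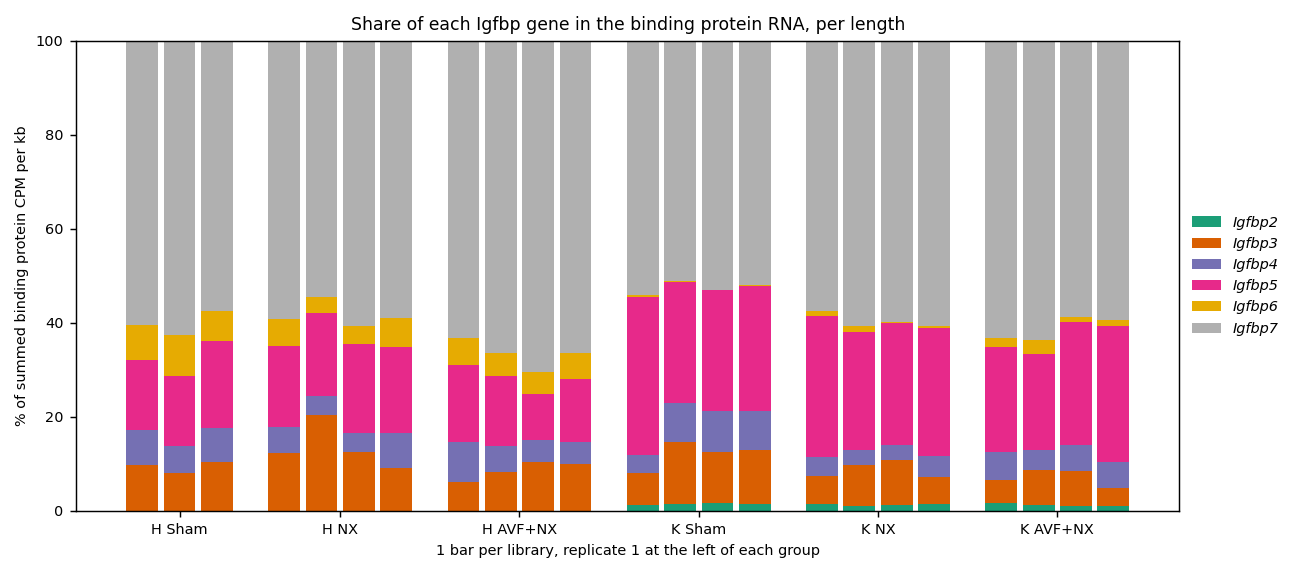
Share of each binding protein gene in the summed CPM per kilobase of the 6 genes (y axis, percent), 1 bar per library in the order of replicate numbers, for heart (H) and kidney (K). Igfbp7 is above 51% in every bar; the Igfbp6 band is visible in hearts (3.51 to 8.82%) and thin in Sham kidneys (0.102 to 0.311%).

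Within each organ the groups were compared in 1 edgeR quasi-likelihood fit, with p-values adjusted over all genes tested by the Benjamini-Hochberg method and an adjusted p below 0.05 as the call. In heart AVF+NX against Sham, 2 of 9 members were called, both higher, against 15.4% of 12794 genes called higher and 18.6% lower. In heart NX against Sham edgeR called none of the members and 0% of genes; 2 members had an unadjusted p below 0.05 (20.8% of genes), DESeq2 called 0 and limma voom 2. In heart AVF+NX against NX edgeR called none (0.336% of genes), with 4 members at an unadjusted p below 0.05 (21.5% of genes), 2 called by DESeq2 and 0 by voom. In kidney NX against Sham 1 of 10 members was called, lower, where 0.447% of genes were called lower and 0.859% higher. In kidney AVF+NX against Sham 3 were called, 1 higher and 2 lower, against 15.9% of genes higher and 9.18% lower. In kidney AVF+NX against NX edgeR called none (6.07% of genes), with 3 members at an unadjusted p below 0.05 (23% of genes) and 0 called by DESeq2 and by voom. The 2 comparisons with Sham in an organ share their Sham libraries. Median log2 fold changes of the members were 0.17, 0.02 and 0.15 in heart (NX against Sham, AVF+NX against Sham, AVF+NX against NX) and -0.21, -0.14 and 0.05 in kidney, where medians over all genes tested lay between -0.01 and 0.02.

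**Figure D3:**
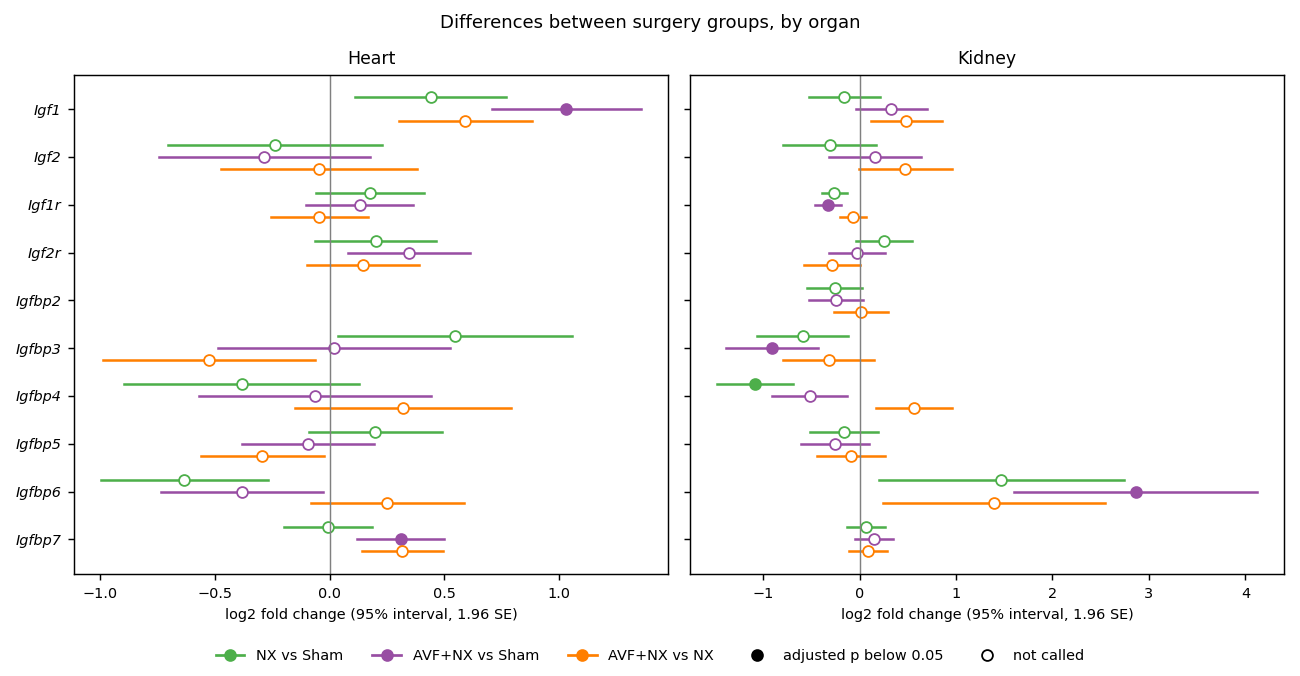
Log2 fold changes (x axis; the scales of the panels differ) of each gene in 3 comparisons per organ, with 95% intervals. Filled points passed an edgeR adjusted p below 0.05: Igf1 (1.03) and Igfbp7 (0.31) in heart, and in kidney Igfbp6 (2.86), Igf1r (-0.33) and Igfbp3 (-0.91) for AVF+NX against Sham and Igfbp4 (-1.08) for NX against Sham.

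Of the ligand genes, only Igf1 passed the test between surgery groups, and only in the heart, where it was higher in AVF+NX than in Sham. Its level was 17.8, 14.4 and 18.4 CPM in the Sham hearts, 18.9, 24.6, 29.2 and 18.5 CPM in the NX hearts, and 39.7, 32.4, 35.7 and 30.3 CPM in the AVF+NX hearts. All AVF+NX hearts were above all NX and Sham hearts. Each NX heart was above the highest Sham heart, the closest pair by a small margin. Among NX hearts the higher values were in libraries 2 and 3, with 22679092 and 18034380 counts. Their small RNA indices were -1.02 and -0.62. NX libraries 1 and 4, near the Sham level of Igf1, had 9605973 and 10511439 counts and indices of 1.00 and 0.67. AVF+NX hearts had 2.04-fold the Sham level (log2 1.03, SE 0.17, edgeR adjusted p = 0.00217). Against NX the log2 difference was 0.59 (SE 0.15, adjusted p = 0.0756), and NX against Sham gave 0.44 (SE 0.17, adjusted p = 0.191); neither passed. Groups that did not overlap were found for 47.4% of genes in AVF+NX against Sham, 10.1% in AVF+NX against NX and 15.9% in NX against Sham. The authors' deposited table gives Igf1 in AVF+NX against Sham a log2 fold change of 1.03 with an adjusted p of 2.67e-12, and in AVF+NX against NX 0.59 with 0.0264.

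The Igf1 call was kept when any 1 of the 7 hearts was left out (log2 0.94 to 1.11). It was lost when the log2 total count was a covariate (0.77, adjusted p = 0.139; 2 genes called in all) and when the small RNA index was one (0.71, adjusted p = 0.101; 58 genes called). Fibroblast and macrophage markers moved in the same direction: 5 of 8 fibroblast and 3 of 9 macrophage markers rose in AVF+NX against Sham hearts and 1 macrophage marker fell. Summed fibroblast markers were 1650 to 2169 CPM in Sham, 1759 to 2612 in NX and 2495 to 3845 in AVF+NX hearts, and macrophage markers 213 to 225, 216 to 348 and 306 to 392 CPM. Their part in the result was not tested. In tissue RNA, fewer cells of a type and less RNA per cell cannot be told apart.

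In the kidney Igf1 did not pass in any comparison. Sham kidneys had 55.1, 56.5, 56.5 and 39.9 CPM, NX kidneys 48.2, 51.7, 50.6 and 36.5 CPM, and AVF+NX kidneys 79.1, 52.5, 47.0 and 82.3 CPM. AVF+NX libraries 1 and 4 stood above all others, while libraries 2 and 3 lay within the range of Sham and NX. Against Sham the log2 difference was 0.33 (95% interval -0.04 to 0.70, adjusted p = 0.225), and against NX 0.49 (0.12 to 0.86, adjusted p = 0.148). The heart effect of AVF+NX against Sham exceeded the kidney effect by 0.79 on the log2 scale (SE 0.28, adjusted p = 0.0369, 27.9% of 15222 genes called). This organ difference lost its call in 10 of 15 fits that each left out a library, with log2 values of 0.67 to 0.93. For AVF+NX against NX the organ difference of Igf1 was 0.13 (SE 0.26, edgeR adjusted p = 0.848).

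Igf2 differed between the organs and not, by the test, between surgery groups. Hearts had 26.6, 37.6 and 54.4 CPM in Sham, 27.8 to 38.7 in NX and 25 to 44.7 in AVF+NX, and kidneys 4.77 to 6.99, 2.72 to 6.29 and 4.94 to 6.83 CPM. The largest log2 difference was 0.47 in kidney AVF+NX against NX (95% interval -0.01 to 0.95, adjusted p = 0.273). Exons of Igf2 overlap a further gene model on the same strand, so its reads may be split. The heart Sham values are widely spread, and without Sham library 3 the log2 differences of NX and AVF+NX from Sham go from -0.24 and -0.28 to 0.09 and 0.03.

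Igf1r fell in the kidney by a small amount that varied little between libraries. Sham kidneys had 152, 149, 149 and 159 CPM, NX kidneys 129, 117, 128 and 134 CPM, and AVF+NX kidneys 120, 114, 128 and 124 CPM. Every operated kidney was below every Sham kidney, and NX and AVF+NX kidneys overlapped. AVF+NX kidneys had 0.798 of the Sham level (log2 -0.33, SE 0.07, adjusted p = 0.00414), and the call was kept in every alternative run. NX against Sham gave -0.26 (SE 0.07, adjusted p = 0.0778), which did not pass here and was called by DESeq2 (adjusted p = 0.00227) and voom (0.0225). Groups that did not overlap were found for 9.38% of genes in NX against Sham and 27.6% in AVF+NX against Sham. In hearts Igf1r was 25.4 to 30.0 CPM in Sham, 28.5 to 34.3 in NX and 26.1 to 36.5 in AVF+NX. The heart effect of AVF+NX against Sham was 0.54 above the kidney effect on the log2 scale (SE 0.13, adjusted p = 0.00394), called without any 1 library as well (log2 0.48 to 0.61). The proximal tubule is the most abundant part of the kidney cortex, and 4 of its 6 markers fell in AVF+NX against Sham kidneys, with sums of 16930 to 20448 CPM in Sham, 11534 to 16855 in NX and 9721 to 14495 CPM in AVF+NX. Their part in the difference was not tested.

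Igf2r did not pass in any comparison. AVF+NX hearts had 388, 381, 257 and 282 CPM against 237, 277 and 258 CPM in Sham hearts, with libraries 1 and 2 above and libraries 3 and 4 close to Sham (log2 0.35, SE 0.14, adjusted p = 0.0625). DESeq2 (adjusted p = 0.0444) and voom (0.0279) called it. NX hearts had 283, 282, 311 and 307 CPM, all above Sham, with a log2 difference of 0.20 (SE 0.14, adjusted p = 0.398). Over all genes, NX and Sham hearts did not overlap for 15.9%. Kidneys had 428 to 496 CPM in Sham, 427 to 652 in NX and 398 to 558 in AVF+NX, and NX against Sham gave log2 0.26 (95% interval -0.03 to 0.55).

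Among the binding protein genes, Igfbp6 showed the largest rise, in the kidney. Sham kidneys had 5.34, 5.10, 1.66 and 3.87 CPM and AVF+NX kidneys 28.2, 47.5, 17.0 and 23.2 CPM. NX kidneys split, with 19.4 and 18.7 CPM in libraries 1 and 2 and 2.03 and 4.55 CPM in libraries 3 and 4. AVF+NX did not overlap with Sham (27.6% of genes did not), whereas NX overlapped with both. The AVF+NX level was 7.28-fold the Sham level (log2 2.86, SE 0.64, adjusted p = 0.00791), and this call was kept in every alternative, with log2 values of 2.52 to 3.06 when 1 library was left out. NX against Sham (log2 1.47, SE 0.65, adjusted p = 0.270) and AVF+NX against NX (1.39, SE 0.59, adjusted p = 0.183) did not pass.

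Fibroblast markers were high in AVF+NX kidneys too, and among NX kidneys they were highest in libraries 1 and 2. Their sum was 640 to 885 CPM in Sham and 3073 to 6809 CPM in AVF+NX kidneys. In NX kidneys it was 2016 and 3318 CPM in libraries 1 and 2, which had the more Igfbp6, and 1037 and 1596 CPM in libraries 3 and 4. In AVF+NX libraries 1 to 4 it was 6809, 4695, 3073 and 5172 CPM. There the highest sum was in library 1 and the most Igfbp6 in library 2 (47.5 CPM). Markers of mural cells (of vessel walls) summed to 598, 833, 399 and 468 CPM in NX libraries 1 to 4. In AVF+NX against Sham, 6 of 8 fibroblast markers, 9 of 9 macrophage markers and 5 of 5 B and plasma cell markers rose. Macrophage markers summed to 292 to 367 CPM in Sham, 356 to 1146 in NX and 1154 to 2648 CPM in AVF+NX, and B and plasma cell markers to 0.987 to 3.15, 6.89 to 54.3 and 155 to 321 CPM. In NX libraries 1 to 4 the macrophage sums were 626, 733, 356 and 1146 CPM and the B and plasma cell sums 54.3, 51.4, 6.89 and 52.2 CPM. The part of these cells in the Igfbp6 difference was not tested.

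**Figure D4:**
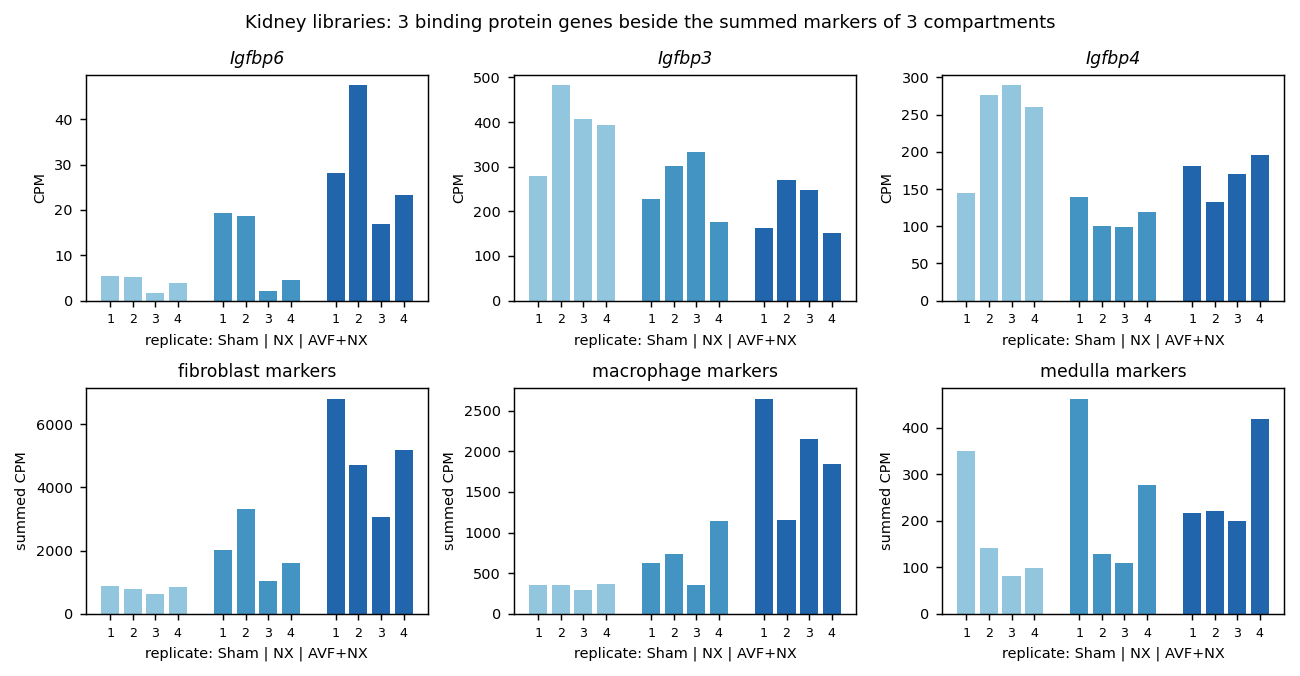
Kidney libraries, 1 bar each in the order of replicate numbers for Sham, NX and AVF+NX. The upper row gives Igfbp6, Igfbp3 and Igfbp4 in CPM, and the lower row the summed CPM of fibroblast, macrophage and medulla markers (linear axes from 0). NX libraries 1 and 2 are high for Igfbp6 (19.4 and 18.7) and for fibroblast markers (2016 and 3318). In AVF+NX, Igfbp6 is highest in library 2 (47.5) and fibroblast markers in library 1 (6809). Sham library 1 is low for Igfbp3 and Igfbp4 (280 and 145) and high for medulla markers (351). The libraries highest for medulla markers in NX (library 1, 463) and AVF+NX (library 4, 418) have the most Igfbp4 of their groups (140 and 196). Their Igfbp3 is 227 and 151.

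In the heart Igfbp6 lay lower after surgery without passing the test. Sham hearts had 19.8, 19.5 and 16.6 CPM, NX hearts 14.5, 8.42, 10.1 and 15.9 CPM, and AVF+NX hearts 15.2, 13.7, 13.6 and 14.7 CPM. Every operated heart was below every Sham heart. The lowest NX values were in libraries 2 and 3, the more deeply sequenced NX hearts, with small RNA indices of -1.02 and -0.62. NX libraries 1 and 4, with indices of 1.00 and 0.67, lay closer to Sham. Over all genes, groups did not overlap for 15.9% in NX against Sham and 47.4% in AVF+NX against Sham hearts. The log2 difference was -0.63 for NX (SE 0.19, adjusted p = 0.152; voom 0.0107) and -0.38 for AVF+NX (SE 0.18, adjusted p = 0.115). When the small RNA index was a covariate, the AVF+NX value was 0.20. The heart effect of AVF+NX against Sham lay below the kidney effect (log2 -3.16, SE 0.68, adjusted p = 0.00264), and this difference passed without any 1 library (-3.34 to -2.82).

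Igfbp3, the main carrier of the ligands in blood, fell in the AVF+NX kidney. Sham kidneys had 280, 482, 406 and 394 CPM, NX kidneys 227, 302, 333 and 176 CPM, and AVF+NX kidneys 162, 271, 249 and 151 CPM. AVF+NX lay wholly below Sham, although its library 2 (271) came close to Sham library 1 (280), and NX overlapped with both. Over all genes, AVF+NX and Sham kidneys did not overlap for 27.6%. The AVF+NX level was 0.533 of Sham (log2 -0.91, SE 0.24, adjusted p = 0.0165). The call was lost without AVF+NX library 1 (-0.81, adjusted p = 0.0555) or Sham library 2 (-0.79, adjusted p = 0.0524). The log2 value was -0.64 (adjusted p = 0.0473) with the medulla index as a covariate, an alternative chosen after seeing the data. NX against Sham gave -0.59 (SE 0.24, adjusted p = 0.232). In hearts Igfbp3 was 57.4, 40.0 and 59.7 CPM in Sham, 51.6 to 109 in NX and 35.9 to 67.1 in AVF+NX, with no difference that passed. The organ difference of AVF+NX against Sham was 1.02 (SE 0.39, adjusted p = 0.0565).

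Igfbp4, whose protein inhibits the ligands until the protease encoded by Pappa cuts it, fell in the NX kidney. Sham kidneys had 145, 277, 289 and 260 CPM, NX kidneys 140, 100, 99.6 and 120 CPM, and AVF+NX kidneys 180, 132, 170 and 196 CPM. NX lay below Sham, with Sham library 1 (145) just above NX library 1 (140), and AVF+NX overlapped with both. Over all genes, NX and Sham kidneys did not overlap for 9.38%. NX kidneys had 0.472 of the Sham level (log2 -1.08, SE 0.20, adjusted p = 0.0297). Leaving out 1 library kept the direction (-1.26 to -0.99) and ended the call in 6 of 8 cases, those of NX libraries 1, 2 and 4 and Sham libraries 2, 3 and 4, with adjusted p of 0.0567 to 0.0989. Without Sham library 1, the Sham kidney highest in medulla markers, the adjusted p was 0.00499, and with the medulla index as a covariate it was 0.0765 (log2 -1.06). The kidneys highest in medulla markers in the operated groups, NX library 1 and AVF+NX library 4, had the most Igfbp4 of their groups. In AVF+NX against Sham the difference was -0.52 (SE 0.20, adjusted p = 0.0746; 0.00535 without Sham library 1), and in AVF+NX against NX 0.56 (SE 0.20, adjusted p = 0.116). The authors' deposited table gives the latter an adjusted p of 0.0136. Heart values of Igfbp4 were 25.4 to 39.5 CPM in Sham, 19.8 to 38.2 in NX and 25 to 45.9 CPM in AVF+NX, and overlapped.

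Igfbp7 rose in the AVF+NX heart. Sham hearts had 162, 142 and 152 CPM, NX hearts 153, 135, 165 and 154 CPM, and AVF+NX hearts 171, 193, 210 and 180 CPM. The AVF+NX hearts were above all others, and NX lay around Sham. Over all genes, AVF+NX hearts did not overlap with Sham for 47.4% and with NX for 10.1%. The level was 1.24-fold that of Sham (log2 0.31, SE 0.10, adjusted p = 0.0271), and the difference from NX was as large without passing (0.32, SE 0.09, adjusted p = 0.0975). The call against Sham was lost when AVF+NX library 2 (adjusted p = 0.0624) or 3 (0.0784) was left out, and likewise for Sham library 2 (0.097) or 3 (0.0664), with the log2 total count as a covariate (0.25, adjusted p = 0.350) and with the small RNA index as one (0.33, adjusted p = 0.212). Endothelial cells are a main source of this protein, and 4 of 7 endothelial markers rose in AVF+NX against Sham hearts, with sums of 586 to 719 CPM in Sham, 758 to 933 in NX and 804 to 1003 CPM in AVF+NX. Their part was not tested. Exons of Igfbp7 overlap Polr2b on the other strand, and the strand setting of the counting is not given in the sources used here. Kidneys had 822 to 1013 CPM in Sham, 843 to 994 in NX and 909 to 1074 in AVF+NX, and AVF+NX against Sham gave log2 0.15 (95% interval -0.04 to 0.35).

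Igfbp5 and Igfbp2 passed in no comparison of surgery groups. Igfbp5, found in bone and kidney matrix and bound to it, was 3347, 2325, 2298 and 2223 CPM in Sham kidneys, 2749, 2124, 2201 and 2020 in NX and 1812, 1805, 2145 and 2787 in AVF+NX. Its highest library in each group (Sham 1, NX 1, AVF+NX 4) was also the one with the most medulla marker RNA in that group. With the medulla index as a covariate the log2 difference of AVF+NX from Sham was -0.45 (adjusted p = 0.0496), against -0.25 (adjusted p = 0.328) without it. Hearts had 181 to 259 CPM in Sham, 232 to 273 in NX and 155 to 236 in AVF+NX. Igfbp2 was 24.0 to 29.5 CPM in Sham kidneys, 18.6 to 27.8 in NX and 18.5 to 28.6 in AVF+NX, with log2 differences from Sham of -0.26 (95% interval -0.54 to 0.02) and -0.24 (-0.52 to 0.04).

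For the organ difference, the heart effect minus the kidney effect, 3 of 9 members were called in AVF+NX against Sham: Igf1 and Igf1r higher in heart relative to kidney and Igfbp6 lower, against 13.3% of genes called higher and 14.6% lower. None was called in NX against Sham (0.158% of genes; 5 members at an unadjusted p below 0.05, 16.6% of genes; DESeq2 2 and voom 2 called) or in AVF+NX against NX (1.12% of genes; 1 member at an unadjusted p below 0.05, 17.4% of genes; DESeq2 and voom 0).

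Other genes of the pathway came from 6 lists of 55 genes, of which 41 were tested in heart and 46 in kidney. In heart AVF+NX against Sham 5 rose and 5 fell, 24.4% of the 41 against 34.1% of all genes. Among regulators of the proteases, Stc2, whose protein inhibits pregnancy-associated plasma protein A, fell by 1.70 (SE 0.25, adjusted p = 0.00185), and Ctsd, a lysosomal protease, fell by 0.37 on the log2 scale. Of the adaptors, Grb10, which damps receptor signalling, rose (log2 0.58), Lrp1, a scavenger receptor that also binds Igfbp3 protein, rose (0.70), and Grb2, which links receptors to Ras, fell (-0.60). In PI3K signalling Pik3r1, the regulatory subunit, rose (0.51), and Eif4ebp1, a repressor of translation that mTOR inactivates, fell (-0.64). Stat5a, which carries the growth hormone signal, fell (-0.38). Without 1 library the call was lost in 4 of 7 fits for Lrp1, Pik3r1 and Stat5a, in 2 for Ctsd and in 1 for Eif4ebp1.

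Mest, an imprinted fetal gene, was 0.621 to 1.06 CPM in Sham hearts, 0.937 to 1.76 in NX and 2.67 to 3.95 CPM in AVF+NX. It rose 4.17-fold against Sham (log2 2.06, SE 0.31, adjusted p = 0.00185). It was also the only pathway gene of these lists called in AVF+NX against NX hearts (log2 1.46, SE 0.26, adjusted p = 0.0378; lost in 5 of 8 fits without 1 library, in voom, with the log2 total count as a covariate and with only those groups fitted). None of the 41 was called in NX against Sham hearts. With a covariate for the log2 total count or for the small RNA index, no call on these named genes in AVF+NX against Sham hearts remained.

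In kidney AVF+NX against Sham 9 pathway genes rose and 6 fell, 32.6% of 46 against 25.1% of all genes. Socs3, a feedback inhibitor of growth hormone and cytokine signals, rose 3.68-fold (log2 1.88, SE 0.32, adjusted p = 0.00127), and Lrp1 (0.94), Shc1, an adaptor of the receptor (0.62), and Htra1, a protease of binding proteins (0.56), rose as well. Mmp7, a further protease of binding proteins, had 1 count in 1 of 4 Sham kidneys, 0.108 to 9.0 CPM in NX and 2.42 to 25.9 CPM in AVF+NX, and passed (adjusted p = 0.00257). Insr, the insulin receptor, fell (-0.42), as did the kinase subunit Pik3cb (-0.31), while Akt1 (0.33), Eif4ebp1 (0.73; lost in 3 of 8 fits without 1 library) and Ctsd (0.54) rose. In NX against Sham Ctsd rose (0.62, adjusted p = 0.0297) and Irs2, a docking protein of both receptors, fell (-0.71, adjusted p = 0.0374), 4.35% of the 46 against 1.31% of genes; without 1 library the call was lost in 5 of 8 fits for Ctsd and in 6 of 8 for Irs2. In AVF+NX against NX 4 rose, Htra1 (0.40), Socs3 (1.42), Lrp1 (0.72) and Grb2 (0.29), and Pik3cb fell (-0.25), 10.9% against 6.07%. Leaving out 1 library at a time ended these calls in 6 of 8 fits for Htra1, 4 for Socs3, 6 for Lrp1, 7 for Grb2 and 5 for Pik3cb, with no change of direction.

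Genes with the most similar pattern were sought as those with the smallest root mean square difference in centred log2 CPM over the means of the 6 organ and surgery groups. For Igf1 these were Herc6 (0.0593), Osmr (0.0795) and Snx10 (0.101), for Igf2 Ankh (0.0963), Oca2 (0.117) and Socs2 (0.121), and for Igf1r Gcsh (0.0480), Aco1 (0.0493) and Ptch1 (0.0514). For the binding proteins they were Adhfe1, Acss2 and Spa17 for Igfbp3 (0.132 to 0.177), Pafah1b3, Chrna2 and Akap17b for Igfbp4 (0.170 to 0.177), Lrat, Fcna and Ssc5d for Igfbp6 (0.163 to 0.201) and Tcp11l1, Ift80 and Chn2 for Igfbp7 (0.0464 to 0.0641). The means carry mostly the difference between the organs.

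The authors' deposited tables give adjusted p below 0.05 to Igf1, Igfbp7, Igfbp6 and Igf2r in heart AVF+NX against Sham, where 40.4% of their genes have one, and to Igf1 in heart AVF+NX against NX (3.77%). In kidney the authors' deposited tables do so for Igfbp4 and Igf1r in NX against Sham (5.86%), for Igfbp6, Igf1r, Igfbp3 and Igfbp4 in AVF+NX against Sham (31.1%), and for Igfbp4 in AVF+NX against NX (7.87%). No member has one in heart NX against Sham (1.08%).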

How the data were processed

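RNA was poly(A)-selected and sequenced from strand-specific libraries, per the labels' protocols. The authors deposited whole-number read counts per gene, per the file headers, with gene positions and exon length. Subread 1.5.2 with featureCounts, Trimmomatic 0.36 and STAR 2.5.2b appear in the submitters' processing notes, with no role stated. The authors' deposited tables hold log2 fold changes, p-values and adjusted p-values for 6 comparisons, and a normalised signal per library, checked to equal the count divided by 1 factor per library. Of the tool behind them, the genome build and the strand setting, each is not given in the sources used here. Gene symbols came from those tables (15123 of 32552 identifiers), which 10 of 10 members carry; sequences came from RefSeq (GRCr8).

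From the counts, each organ was fitted once with 3 groups in edgeR 4.0.16 (R 4.3.3; filterByExpr, TMM, robust quasi-likelihood), which tested 12794 genes in heart and 14322 in kidney. A fit of all 23 libraries gave organ differences. An SE was taken as the log2 fold change over the root of F. CPM use TMM-scaled totals of the organ's fit unless said otherwise. Intervals cover counting error and spread between these libraries only, and floors (3 counts) cover counting error alone. The fits were tested on simulated data. Replicates differed by at least 6.49 chi-square per degree of freedom, so none was counted as a repeat. Alternatives were DESeq2 1.42.0, limma 3.58.1 voom with quality weights, other scaling and filter, covariates, a replicate term and leaving out each library; the medulla index was added after seeing the data. All members are named, with up to 3 called pathway genes per list and comparison by smallest p (1 such gene is not reported here), and the 3 most similar genes of at least 1 CPM. The members and lists were chosen with earlier results of these data known. Replicate numbers did not pair samples: correlations of same-numbered libraries ran from -0.12 to 0.12 in heart and from -0.07 to 0.38 in kidney, not all above 0.1 in any comparison.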

Additional observations from a re-analysis of the deposited data

Results flagged for a closer look

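Igf1 was lowest in kidney Sham library 4 at 39.9 CPM, far from 55.1 to 56.5 CPM in the other 3. Igfbp5 was highest in kidney Sham library 1 at 3347 CPM, against 2223 to 2325 CPM in the other 3; this library also had the most medulla marker RNA of the Sham kidneys (351 CPM against 80.5 to 142). These were 2 of 48 groups of 4 libraries checked for a library far from the rest, and chance gives about 1 in 20.

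The AVF+NX against Sham effects of 3 members differed between the organs by the test of the difference itself (heart minus kidney, log2, edgeR): Igf1 by 0.79 (adjusted p = 0.0369), Igf1r by 0.54 (adjusted p = 0.00394) and Igfbp6 by -3.16 (adjusted p = 0.00264). For Igf1r the effect was 0.13 in heart and -0.33 in kidney, and for Igfbp6 -0.38 and 2.86, each from the organ's own fit. The organ differences came from the fit of all 23 libraries with its own scaling, so they are not the exact differences of these effects.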

How the results depend on the processing

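The calls on Igfbp6 and Igf1r in kidney AVF+NX against Sham, and on their organ differences, were kept in every alternative run. Those on Igf1 and Igfbp7 in heart and Igfbp3 and Igfbp4 in kidney were lost in the alternatives named in the report. The strength of the heart comparison with Sham is limited by 3 Sham libraries and by depth and the small RNA index, which do not overlap between these groups. Replicate numbers did not pair the samples, so the fit with a replicate block is a check only. With the replicate block, AVF+NX against NX in kidney called Igfbp6 (log2 1.65, adjusted p = 0.0184). Below, counts in brackets are those of the reported fit, values after a change of sign are log2 differences, and the causes were not tested. With RLE size factors, the sign changed for Igfbp7 in heart NX against Sham (0.0027), Igf2r in the organ difference of NX against Sham (0.012). With no filter on low counts, genes called were 4 in heart NX against Sham (0), 124 in heart AVF+NX against NX (43), 112 in the organ difference of AVF+NX against NX (170). A new sign was found for Igfbp7 in heart NX against Sham (0.012), Igf2r in the organ difference of NX against Sham (0.013). With DESeq2, genes called were 344 in heart NX against Sham (0), 823 in heart AVF+NX against NX (43), 835 in kidney NX against Sham (187), 1521 in kidney AVF+NX against NX (870), 455 in the organ difference of NX against Sham (24), 661 in the organ difference of AVF+NX against NX (170). Members called were 2 in heart AVF+NX against NX (0), 2 in kidney NX against Sham (1), 2 in the organ difference of NX against Sham (0). The sign changed for Igfbp7 in heart NX against Sham (0.0022), Igf2r in the organ difference of NX against Sham (0.012). With voom, genes called were 2270 in heart NX against Sham (0), 0 in heart AVF+NX against NX (43), 568 in kidney NX against Sham (187), 1763 in the organ difference of NX against Sham (24), 86 in the organ difference of AVF+NX against NX (170). Members called were 2 in heart NX against Sham (0), 4 in heart AVF+NX against Sham (2), 2 in kidney NX against Sham (1), 2 in the organ difference of NX against Sham (0), 5 in the organ difference of AVF+NX against Sham (3). A new sign was found for Igfbp7 in heart NX against Sham (0.016), Igf1r in the organ difference of AVF+NX against NX (-0.014). With the replicate block, genes called were 61 in heart NX against Sham (0), 669 in kidney NX against Sham (187), 1647 in kidney AVF+NX against NX (870), 422 in the organ difference of NX against Sham (24), 353 in the organ difference of AVF+NX against NX (170). Members called were 3 in kidney NX against Sham (1), 1 in kidney AVF+NX against NX (0), 2 in the organ difference of NX against Sham (0). The sign changed for Igf2r in the organ difference of NX against Sham (0.059). With a covariate for the log2 total count, genes called were 2 in heart NX against Sham (0), 2 in heart AVF+NX against Sham (4357), 0 in heart AVF+NX against NX (43). Members called were 0 in heart AVF+NX against Sham (2). A new sign was found for Igf2 in heart AVF+NX against Sham (0.093), Igfbp3 in heart AVF+NX against Sham (-0.27), Igfbp4 in heart AVF+NX against Sham (0.093), Igf2 in heart AVF+NX against NX (0.22), Igf1r in heart AVF+NX against NX (0.063). With a covariate for the small RNA index, genes called were 58 in heart AVF+NX against Sham (4357), 73 in heart AVF+NX against NX (43). Members called were 0 in heart AVF+NX against Sham (2). The sign changed for Igfbp7 in heart NX against Sham (0.0023), Igfbp3 in heart AVF+NX against Sham (-0.61), Igfbp4 in heart AVF+NX against Sham (0.59), Igfbp6 in heart AVF+NX against Sham (0.20). With a covariate for the medulla index, genes called were 54 in kidney NX against Sham (187), 2305 in kidney AVF+NX against Sham (3594). Members called were 0 in kidney NX against Sham (1). A new sign was found for Igf2r in kidney AVF+NX against Sham (0.14). With only the 2 groups compared in the fit, genes called were 0 in heart AVF+NX against NX (43), 267 in kidney AVF+NX against NX (870). The sign changed for Igfbp7 in heart NX against Sham (0.0079). Leaving out 1 library at a time gave 0 to 695 genes in heart AVF+NX against NX, 0 to 538 genes in heart NX against Sham, 2724 to 4236 genes in heart AVF+NX against Sham, 2313 to 4428 genes in kidney AVF+NX against Sham, 324 to 1585 genes in kidney AVF+NX against NX, 19 to 583 genes in kidney NX against Sham, 50 to 703 genes in the organ difference of AVF+NX against NX, 0 to 452 genes in the organ difference of NX against Sham. Members called then numbered 1 to 3 in heart AVF+NX against Sham, 0 to 1 in heart NX against Sham, 0 to 1 in heart AVF+NX against NX, 0 to 1 in kidney AVF+NX against NX, 0 to 1 in kidney NX against Sham, 0 to 1 in the organ difference of NX against Sham. Log2 differences that crossed 0 in those fits, all of them not called, ranged from -0.23 to 0.064 for Igf2 in heart AVF+NX against NX, -0.13 to 0.18 for Igfbp3 in heart AVF+NX against Sham, -0.25 to 0.050 for Igfbp4 in heart AVF+NX against Sham, -0.20 to 0.066 for Igfbp5 in heart AVF+NX against Sham, -0.13 to 0.031 for Igf1r in heart AVF+NX against NX, -0.051 to 0.046 for Igfbp7 in heart NX against Sham, -0.46 to 0.088 for Igf2 in heart NX against Sham, -0.51 to 0.034 for Igf2 in heart AVF+NX against Sham, -0.11 to 0.13 for Igfbp2 in kidney AVF+NX against NX, -0.15 to 0.023 for Igf2r in kidney AVF+NX against Sham, -0.24 to 0.013 for Igfbp5 in kidney AVF+NX against NX, -0.014 to 0.12 for Igf1r in the organ difference of AVF+NX against NX, -0.10 to 0.097 for Igf2r in the organ difference of NX against Sham, -0.078 to 0.037 for Igfbp7 in the organ difference of NX against Sham, -0.34 to 0.076 for Igfbp3 in the organ difference of AVF+NX against NX, -0.072 to 0.46 for Igf2 in the organ difference of NX against Sham.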
